A study of Mus musculus with 2 samples.

Results

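Barcodes chosen as nonclassical monocytes by their Ace, Treml4 and Adgre4 transcripts numbered 137 of the 10709 that passed the depth limits in both libraries, 79 of 4659 from the PBS library and 58 of 6050 from the 6C5 library. A barcode, which stands for 1 droplet and usually 1 cell, passed with at least 2000 UMIs (transcripts counted once through a molecular identifier) and at most 10% mitochondrial UMIs. Members were selected on counts: they had at least 3 UMIs summed over Ace, Treml4 and Adgre4. They also had to hold less than 0.4% of their UMIs in C1qa, C1qb and C1qc, less than 0.1% in Arg1 and less than 1% in S100a8 and S100a9. At most 1 UMI of Cd3d, Cd3e and Cd3g, at most 1 of Xcr1 and Clec9a, at most 2 of Fscn1 and Ccr7, and at most 2 of Cd209a and Mgl2 were allowed. The levels of all these genes were set by the choice of members and are given only as a description.

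The cells were CD45-positive cells sorted from day 15 B16-hAXL tumours of WT mice. B16 is a mouse melanoma line, and hAXL in its name is taken here to stand for human AXL. The control mice had received PBS and the treated mice 200 µg of the anti-AXL antibody 6C5, both into the peritoneum. The title of the series places the comparison in the question of how an antibody that binds AXL near the cell membrane alters the tumour environment. Each group had 1 library, and the sources used here do not state how many mice went into it. A difference between the groups is thus one between single libraries, without replicates to check it against. Intervals are exact 95% intervals unless stated and cover counting error only.

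Nonclassical monocytes are the Ly6C-low monocytes that crawl along the inner wall of blood vessels, held there by the integrin LFA-1 and drawn by the fractalkine receptor CX3CR1. They arise from Ly6C-high classical monocytes, depend on the nuclear receptor NR4A1 and on CSF1R signalling for survival, and clear debris and dying cells. Classical monocytes use CCR2 to leave the bone marrow and enter inflamed tissue, where many become macrophages or dendritic cells. Ace encodes angiotensin-converting enzyme, Treml4 a receptor that binds dying cells, and Adgre4 an adhesion receptor related to F4/80. Ace lies at chr11:105967945-105989964, Treml4 at chr17:48264295-48275360 and Adgre4 at chr17:55749984-55853662 of GRCm38, all on the plus strand and all protein-coding in GENCODE.

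The libraries held 78923567 UMIs (PBS) and 85921419 UMIs (6C5). Passing barcodes had a median of 9286 UMIs in PBS and 6818 in 6C5, and a median mitochondrial share of 0.715% and 0.412%. There were 47 barcode sequences that passed in both libraries, and 0 that were members in both.

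Some members carried genes of other lineages. In the 6C5 library 4 members held 223 to 940 UMIs of 7 melanoma genes, 38778 to 86596 UMIs in all, at most 1 UMI of Ptprc (the gene of CD45) and 3 to 5 UMIs of the marker genes. These 4 barcodes supplied 36.8% of all UMIs of the 6C5 members. Another 6C5 member held 26 UMIs of NK-cell genes, and 2 PBS members held 23 and 45 UMIs of B-cell genes. In the other 130 members no such list exceeded 5 UMIs. Values below are for those 130 members, 77 from PBS and 53 from 6C5, unless all members are named. Free RNA from burst cells, estimated from 8 melanoma and haemoglobin genes, came to 2.45% of their UMIs in PBS and 2.01% in 6C5.

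A further group carried neutrophil genes. Over 11 neutrophil genes, S100a8 and S100a9 among them, 5 of 77 PBS members (6.49%, 2.14 to 14.5) and 10 of 53 6C5 members (18.9%, 9.44 to 32.0) held 10 UMIs or more. Their neutrophil-gene UMIs ran from 12 to 282 in PBS and from 12 to 206 in 6C5, whereas none of the remaining members held more than 4. They gave 10.0% of the members' UMIs in PBS and 27.6% in 6C5. All of them also carried Csf1r, the monocyte and macrophage growth factor receptor, which neutrophils largely lack. Their median doublet score, given by the program Scrublet, was 0.0536 in PBS and 0.1287 in 6C5. The remaining members had medians of 0.0225 and 0.0194, with highest scores of 0.0768 and 0.0724. Ratios between the libraries are therefore also given for the 72 PBS and 43 6C5 members without the neutrophil-gene barcodes. The part of doublets or of engulfed or free neutrophil RNA was not tested.

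The label was checked against monocytes of the same libraries that carried 0 UMIs of Ace, Treml4 and Adgre4 and at least 3 UMIs of Vcan and Chil3, genes of classical monocytes. They numbered 254 in PBS and 268 in 6C5 after the same removal of other lineages. Genes of nonclassical monocytes that the choice of members had not used were higher in the members in both libraries. Of 26 such genes with enough counts, 15 were 2-fold or more higher in both libraries and 0 were lower. Over all 4903 genes compared, 127 were higher by that measure (2.59%) and 134 lower (2.73%). With all members included, 80 of 5449 genes (1.47%) were higher and 127 (2.33%) lower (34 and 212 with TMM factors for scaling), and 11 of the 26 list genes were higher. Without the neutrophil-gene barcodes 13 of 24 list genes were higher.

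Eno3, which encodes the muscle form of the glycolytic enzyme enolase, stood furthest apart among the nonclassical genes that had at least 50 UMIs over both cell groups in each library. It was at 148 CPM (UMIs per 1000000 UMIs of the group) in PBS members and 106 CPM in 6C5 members, against 4.10 and 3.29 CPM in the Vcan or Chil3 monocytes. These are ratios of 36.0 and 32.3. Cd300e, a receptor of the CD300 family, was below that limit, with ratios of 76.3 (19.6 to 654) in PBS and 19.2 (6.74 to 67.2) in 6C5. After each cell had been thinned to 2000 UMIs, Eno3 was seen in 23.4% (14.5 to 34.4) of PBS members and 18.9% (9.44 to 32.0) of 6C5 members. The same share was 0.787% and 0% of the Vcan or Chil3 monocytes (0 of 268 cells, which allows a share of cells with a UMI of up to 1.12% when 3 cells are taken as the limit) and 3.55% and 4.17% of T cells, which were taken as barcodes with at least 3 UMIs of Cd3 genes. Without thinning, 39.0% and 41.5% of members had an Eno3 UMI, at median depths of 7109 and 6862 UMIs. T cells, at 5805 and 6971 UMIs, had one in 14.5% and 18.5%.

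Genes of adhesion and patrolling followed the same order. Spn, the sialoglycoprotein CD43 by which this subset is often sorted, was at 95.5 and 96.5 CPM in members, 12.3 times the level in Vcan or Chil3 monocytes in PBS and 14.7 times in 6C5. Itgal, the alpha chain of LFA-1, was at 314 and 304 CPM, 6.18 and 5.65 times as high. Cx3cr1 was at 128 and 94.0 CPM, 3.07 and 4.76 times as high, and was detected in 23.4% and 15.1% of thinned members against 1.61% and 3.75% of T cells. Of 16 measured adhesion genes, 6 were 2-fold higher in both libraries and 0 lower.

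Other genes of the nonclassical list were higher as well. Gngt2, a gamma subunit of heterotrimeric G proteins, was at 880 CPM in PBS members and 967 CPM in 6C5 members, 7.67 and 7.73 times the level of the comparison cells. It was detected in 72.7% and 92.5% of thinned members and in 5.81% and 7.71% of thinned T cells. Pou2f2, the transcription factor Oct2, was 6.54 and 5.49 times as high. Ear2, an eosinophil-associated ribonuclease, was 11.5 and 12.9 times as high, and Pglyrp1, a peptidoglycan recognition protein, 5.90 and 8.10 times. Outside the lists, Grk3, a receptor kinase, was 13.4 and 13.1 times as high.

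Other textbook genes of the subset were closer to the level of the comparison cells. Nr4a1 was at 1398 and 1405 CPM in members, 1.06 and 1.54 times the level of the Vcan or Chil3 monocytes. Csf1r was 1.43 and 1.65 times as high, and Fcgr4, the activating IgG receptor FcγRIV, 1.30 times in PBS and 0.716 times in 6C5. Lyz2, the lysozyme gene of the whole myeloid lineage and 1 of the label's 5 markers, was at 0.990 and 1.09 times the comparison level. Chil3, another of those markers, helped to choose the comparison cells and was at 0.801 and 0.508 times their level.

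Classical monocyte genes were lower on the whole, and few were so by 2-fold in both libraries. Of 19 measured, 3 were, and 0 were higher. F13a1, a clotting factor subunit, was at 203 CPM in PBS members and 126 CPM in 6C5 members, 0.2895 and 0.205 times the comparison level. Fn1, fibronectin, was at 0.486 and 0.495 times that level and Ly6a at 0.443 and 0.246 times. Ly6c2, whose product is the Ly6C antigen, was at 0.604 and 0.453 times, and Ccr2 at 0.690 and 0.516 times. The median log2 ratio of the list was -0.53 in PBS and -0.83 in 6C5, against 1.14 and 1.32 for the nonclassical list.

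Genes that recruit other leukocytes were lower in the members. Of 16 chemokine genes, 8 were 2-fold or more lower in both libraries and 0 higher, with median log2 ratios of -1.25 and -1.70. Ccl7, a ligand of CCR2, was at 394 and 621 CPM in members against 3517 and 3919 CPM in the comparison cells. Ccl12, also a CCR2 ligand, was at 34.7 and 42.0 CPM against 510 and 1105 CPM, ratios of 0.0681 and 0.0380. A single 6C5 member held 61.4% of the 6C5 members' Ccl7 UMIs. The complement receptor gene C3ar1 was at 0.146 and 0.142 times the comparison level, and Pf4, a chemokine of platelets and macrophages, at 0.104 and 0.0690 times.

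**Figure D1:**
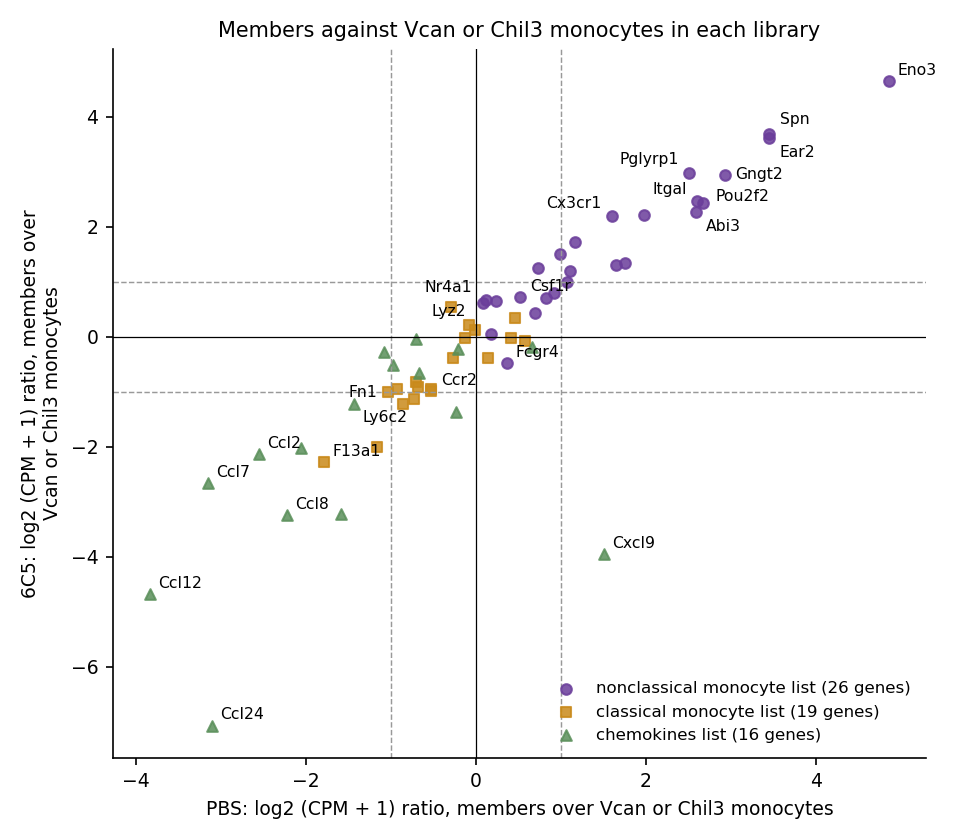
Each point is a gene with at least 50 UMIs over both cell groups in each library. The axes give its log2 ratio of CPM plus 1, members over Vcan or Chil3 monocytes, in PBS (horizontal) and 6C5 (vertical), and dashed lines mark 2-fold. Genes of the nonclassical list lie at the upper right, up to Eno3 at 36.0-fold in PBS, most chemokines at the lower left. Ccl24 was at 0 UMIs in the 6C5 members, so its height is set by the added 1 CPM, and 98.8% of the PBS Cxcl9 UMIs came from 1 member.

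The bound of 3 marker UMIs fell within a range of cells and did not mark a gap. In PBS 26 members had exactly 3 marker UMIs, 18 had 4 and 33 had 5 or more, and in 6C5 18, 6 and 29 did. All of Ace, Treml4 and Adgre4 were seen in 25 PBS and 21 6C5 members. Just outside the bound, 30 barcodes in each library had 2 marker UMIs and otherwise met the rule with no other-lineage genes. Eno3 was at 8.15 CPM in those PBS barcodes, 50.9 CPM at exactly 3 marker UMIs and 301 CPM at 5 or more. In 6C5 the values were 53.2, 40.1 and 168 CPM, so that barcodes just outside and just inside did not differ in that order. Ly6c2 went the other way, with 1312, 792 and 253 CPM in PBS and 1609, 2011 and 328 CPM in 6C5.

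Members took a smaller share of the barcodes in the 6C5 library. The PBS share was 79 of 4659 (1.70%, 1.35 to 2.11) and the 6C5 share 58 of 6050 (0.959%, 0.729 to 1.24), giving a ratio of 0.565 (95% interval on the log scale, 0.404 to 0.792). The ratio was 0.530 (0.374 to 0.751) without the 7 members of other lineages. It was 0.460 (0.316 to 0.670) without the neutrophil-gene members as well, with shares of 1.55% and 0.711%. With the members required to hold at least 5 marker UMIs it was 0.660, and the interval of 0.406 to 1.07 then included 1.

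Depth differs between the libraries and can set such a share. After every barcode had been thinned to 2000 UMIs, 23 barcodes in PBS (0.494%) and 15 in 6C5 (0.248%) still met the rule, a ratio of 0.502 (0.262 to 0.961). Among barcodes with at least 4000 UMIs the ratio was 0.655 (0.457 to 0.941). Counted among monocytes and macrophages only, the PBS share was 4.79% of 1649 barcodes and the 6C5 share 2.92% of 1988, with a ratio of 0.609. Of members and Vcan or Chil3 monocytes together 77 of 331 (23.3%, 18.8 to 28.2) were members in PBS and 53 of 321 (16.5%, 12.6 to 21.03) in 6C5, with a ratio of 0.710 (0.518 to 0.972). These are shares of sorted barcodes, in which fewer such cells, more of the others, and less marker RNA per cell cannot be told apart.

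**Figure D2:**
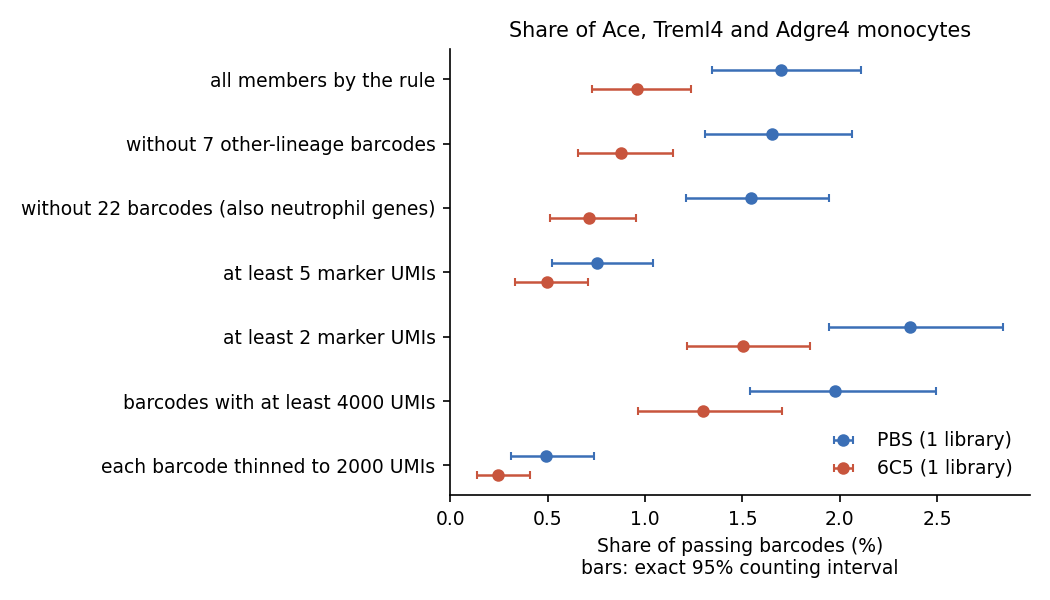
Points give the share (%) of passing barcodes that were members in the PBS (blue) and 6C5 (red) library under 7 settings, with exact 95% counting intervals. The 6C5 point lies below the PBS point in each setting shown, from 1.70% against 0.959% for all members to 0.494% against 0.248% after thinning.

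The transcriptomes of the members were compared between the libraries on UMIs summed per library. A gene was called at a 2-fold ratio of CPM, among genes with at least 50 UMIs. Over all 137 members 385 of 3620 genes were higher in 6C5 (10.6%) and 203 lower (5.61%), or 346 and 299 with TMM factors for scaling. Hypoxia and cell-cycle genes led the higher ones, 15 of 18 and 11 of 14, and so did 6 of 6 melanoma genes. The 4 melanoma-gene barcodes were part of these sums. Without the 7 members of other lineages 45 of 2794 genes were higher (1.61%) and 62 lower (2.22%), with 3 of 16 hypoxia genes and 0 of 4 cell-cycle genes among the higher. With TMM factors the split was 65 higher and 44 lower. Without the neutrophil-gene members too, 20 of 2390 genes were higher (0.837%) and 50 lower (2.09%). There were 12 genes higher in both of the reduced sets, and 9 of these were higher among all members as well.

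As a list, the programme that named the cells differed little between the libraries, among members chosen by the same bound of 3 marker UMIs. Eno3 and Spn, genes of the list, were highest at 5 or more marker UMIs in both libraries. The part of the choice of members in this likeness was not tested. Of 27 measured nonclassical genes, 2 were 2-fold higher in 6C5 and 0 lower, with a median log2 ratio of -0.03. Over all 2794 genes 1.61% were higher and 2.22% lower, with a median of -0.06. Nr4a1 was at 1398 CPM in PBS and 1405 CPM in 6C5, a ratio of 1.00 (0.901 to 1.12). The ratio was 1.10 (0.960 to 1.26) for Gngt2, 0.968 (0.764 to 1.22) for Itgal, 1.01 (0.652 to 1.55) for Spn and 0.836 (0.693 to 1.01) for Csf1r. These became 1.15, 1.001, 1.07 and 0.907 without the neutrophil-gene members, and that of Nr4a1 0.999. Of the 27 genes, 14 had a log2 ratio below 0 and 13 above. Among the lower were Fabp4 at 0.636 (0.3955 to 0.999) and Cd300e at 0.633 (0.328 to 1.17). Eno3 was at 0.721 (0.487 to 1.05) and Cx3cr1 at 0.73 (0.481 to 1.10). Without the neutrophil-gene members these 4 ratios were 0.646, 0.833, 0.84 and 0.843. The marker genes themselves, which the rule used, stood at 316 and 307 CPM (Ace), 175 and 163 CPM (Treml4) and 240 and 213 CPM (Adgre4).

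Both genes of that list that reached 2-fold were higher in 6C5. Pglyrp1 was at 148 CPM in PBS and 317 CPM in 6C5, a ratio of 2.15 (1.62 to 2.86), and 2.69 (1.97 to 3.70) without the neutrophil-gene members. Apoc2, an apolipoprotein that activates lipoprotein lipase, was at 240 and 480 CPM, a ratio of 2.00 (1.60 to 2.51) that came to 1.89 without them. Classical genes gave 0 calls of 20, where 1.61% of all genes were higher and 2.22% lower. They gave 1 of 19 (Ly6a, 2.17-fold higher) without the neutrophil-gene members. Ly6c2 was at 962 CPM in both libraries, a ratio of 1.00 (0.876 to 1.14), and at 0.743 (0.629 to 0.876) without the neutrophil-gene members. Plac8 was at 2662 and 2701 CPM, a ratio of 1.01 (0.938 to 1.097), or 1.07 without them. Ccr2 was at 361 and 190.5 CPM, a ratio of 0.527 (0.401 to 0.688), or 0.549 without them.

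Genes induced by type I interferon through the transcription factor complex ISGF3 were in part higher in the 6C5 members. Of 26 measured, 6 were higher and 0 lower, against 1.61% and 2.22% of all genes. These were more calls than in any other list over the 130 members, and the median log2 ratio was 0.39. Without the neutrophil-gene members 2 of 21 were higher, Isg15 and Rsad2, at the same median of 0.39, against 0.837% of all genes. The hypoxia and chemokine lists then also had 2 higher genes each. Over all 137 members 5 of 26 were higher and 1 lower, fewer than the 15 hypoxia genes given above. Isg15, a ubiquitin-like protein that is coupled to other proteins, was at 642.5 CPM in PBS and 1932 CPM in 6C5, a ratio of 3.01 (2.65 to 3.41). Without the neutrophil-gene members it was at 405 and 1261 CPM, a ratio of 3.11 (2.62 to 3.70). Rsad2, the antiviral enzyme viperin, was at 125 and 534 CPM, a ratio of 4.27 (3.26 to 5.66), or 2.82 (1.89 to 4.26) without them. Ifit3, which binds viral RNA together with Ifit1, was at 50.4 and 265 CPM, a ratio of 5.26 (3.46 to 8.22), or 2.85 (1.53 to 5.45) without them, where it had too few UMIs to be counted.

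The excess of Isg15 lay in part of the cells. Its median was 2.13 UMIs per 10000 in PBS members and 4.60 in 6C5 members, and the upper quartile 4.49 and 19.3. Without the neutrophil-gene members the medians were 1.963 and 2.197, so that the typical cell differed little, and the upper quartiles 3.93 and 9.53. Isg15 was detected in 42.9% of thinned PBS members and 64.2% of thinned 6C5 members, and in 30.7% and 48.8% of thinned T cells. In free RNA it was at 610 CPM in PBS and 1421 CPM in 6C5.

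Isg15 was also higher in the other myeloid cells of the 6C5 library. The ratio was 2.90 in Vcan or Chil3 monocytes (1156 and 3347 CPM), 2.64 in low-C1q cells with at least 0.1% of UMIs in Arg1 and 2.63 in macrophages with at least 0.4% in the C1q genes. In the Vcan or Chil3 monocytes 10 of 28 interferon-stimulated genes were 2-fold higher, with a median log2 ratio of 0.76. The share over all genes of those monocytes is not given here, so this count cannot be set against that of the members. In members these genes stood lower than in those monocytes within each library, with median log2 ratios of -0.71 in PBS and -0.90 in 6C5. The difference in response between the cell groups was not tested.

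Promoters of part of the measured interferon-stimulated genes, 14 of the 21 with an entry, hold the core of the element through which ISGF3 binds. They are printed for Isg15, Rsad2 and Ifit3, which held the most UMIs among the genes called higher that had a match. Each run is the RefSeq promoter of GRCm38.p6 from 250 bases before to 50 bases after the start, 5′ to 3′ in the direction of the gene. Capitals mark the core of the interferon-stimulated response element, searched on both strands as GAAA, any 2 bases, GAAA, with overlapping matches counted. Isg15 lies on the minus strand (chr4:156200769-156201068) and holds 3 overlapping matches. Rsad2 (chr12:26456403-26456702, minus) holds 1 and Ifit3 (chr19:34583279-34583578, plus) holds 2.
Isg15: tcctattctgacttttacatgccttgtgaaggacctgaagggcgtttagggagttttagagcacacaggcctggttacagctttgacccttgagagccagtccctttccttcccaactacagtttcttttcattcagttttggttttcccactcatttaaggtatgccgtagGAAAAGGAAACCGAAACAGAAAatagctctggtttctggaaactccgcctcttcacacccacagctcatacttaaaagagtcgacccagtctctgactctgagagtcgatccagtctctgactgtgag
Rsad2: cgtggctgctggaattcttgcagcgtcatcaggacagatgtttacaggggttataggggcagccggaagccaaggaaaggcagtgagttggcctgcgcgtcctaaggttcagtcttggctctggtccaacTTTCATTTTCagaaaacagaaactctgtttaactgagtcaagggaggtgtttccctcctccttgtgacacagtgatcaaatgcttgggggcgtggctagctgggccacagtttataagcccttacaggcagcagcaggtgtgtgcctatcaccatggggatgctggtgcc
Ifit3: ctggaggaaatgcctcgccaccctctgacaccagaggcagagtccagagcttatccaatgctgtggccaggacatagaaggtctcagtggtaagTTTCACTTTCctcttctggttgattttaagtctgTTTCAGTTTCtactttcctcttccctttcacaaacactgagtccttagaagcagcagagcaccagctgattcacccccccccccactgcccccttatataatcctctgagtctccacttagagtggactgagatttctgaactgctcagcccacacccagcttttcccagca

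Of all 32851 promoters listed by RefSeq, 3.44% held such a match. Counted by gene, with any promoter of a gene enough, it was 3.99% of 27025 genes. Of the 26 measured interferon-stimulated genes 21 had a promoter entry, and 14 of these (66.7%) held it. Among the 6 genes called higher, 5 had an entry and 4 held the match (Ifit1, Ifit3, Isg15 and Rsad2), with Isg20 the exception. Among the genes not called, 10 of 16 held it, Irf7 and Oasl1 being among those without. Of 22 nonclassical genes with an entry 1 held it, Fcgr4. The NR4A element, AAAGGTCA on either strand, was in 1.51% of all promoters and 1.7% of all genes. It was in 0 of these 22 genes, which says only that these letters are not in this window.

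Interferon-gamma genes gave no calls upward. Of 9 measured, 0 were 2-fold higher and 2 lower, Cxcl9 and Irf8, with a median log2 ratio of -0.38. Over all genes 1.61% were higher and 2.22% lower. Only Cxcl9, 1 of 8, was lower without the neutrophil-gene members. This T-cell attracting chemokine held 85 UMIs in PBS members, 84 of them in 1 cell, and 4 in 6C5. Its log2 ratio went from -3.77 to 1.62 when the top cell of each library was left out, and that of Gbp5, a guanylate-binding protein, from -0.56 to 0.06. Cxcl10, a ligand of the T-cell receptor CXCR3, was at 1108 CPM in PBS and 745 CPM in 6C5, and 1 PBS member held 41.5% of the PBS UMIs. Its ratio was 0.672 (0.584 to 0.772), or 0.575 without the neutrophil-gene members. The log2 ratio of Cxcl10 went from -0.57 to -0.08 when the top cell of each library was left out, so most of the difference lay in those cells. Irf8, a transcription factor of monocytes and dendritic cells, was at 109 and 49.5 CPM, a ratio of 0.452 (0.259 to 0.758). It was at 0.569 without the neutrophil-gene members.

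Several inflammatory genes moved with the neutrophil-gene barcodes. Of 14 measured inflammatory mediators, Acod1, Il1rn and Il1a, 3 in all, were 2-fold higher in 6C5, against 1.61% of all genes. None of these 3 was 2-fold higher without those barcodes. Of the 13 then measured 1 was, Slpi, a protease inhibitor, against 0.837% of all genes. The Slpi ratio went from 1.94 (1.59 to 2.37) to 2.12 (1.71 to 2.64). Of the Slpi UMIs over the 130 members, 1 cell held 45.8% in 6C5 and 1 cell 35.4% in PBS. Acod1, which makes itaconate, was at 403 CPM in PBS and 1207 CPM in 6C5, a ratio of 2.996 (2.56 to 3.52). Without the neutrophil-gene members it was at 276 and 188 CPM, a ratio of 0.681 (0.489 to 0.935), so that the direction turned. Of the Acod1 UMIs in 6C5 members, 88.7% lay in the 10 neutrophil-gene barcodes. The ratio went from 3.41 to 0.302 for the chemokine gene Cxcl3 and from 4.75 to 0.826 for Hcar2, the receptor of niacin and ketone bodies, both with fewer than 50 UMIs without those members.

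Cxcl2, a neutrophil-attracting chemokine, kept its direction with a smaller ratio. It was at 4942 CPM in PBS and 11031 CPM in 6C5, a ratio of 2.23 (2.13 to 2.34), and at 4309 and 5477 CPM without the neutrophil-gene members, a ratio of 1.27 (1.19 to 1.36). Those members themselves carried 10617 CPM of Cxcl2 in PBS and 25604 CPM in 6C5. Il1rn, the natural antagonist of interleukin-1, went from 2.89 to 1.85 and Il1a from 2.36 to 1.81. Il1r2, the decoy receptor of interleukin-1, was at 48.6 and 277 CPM, a ratio of 5.70 (3.74 to 8.96) that came to 4.63 (2.38 to 9.56) on 13 and 34 UMIs, too few to be counted.

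**Figure D3:**
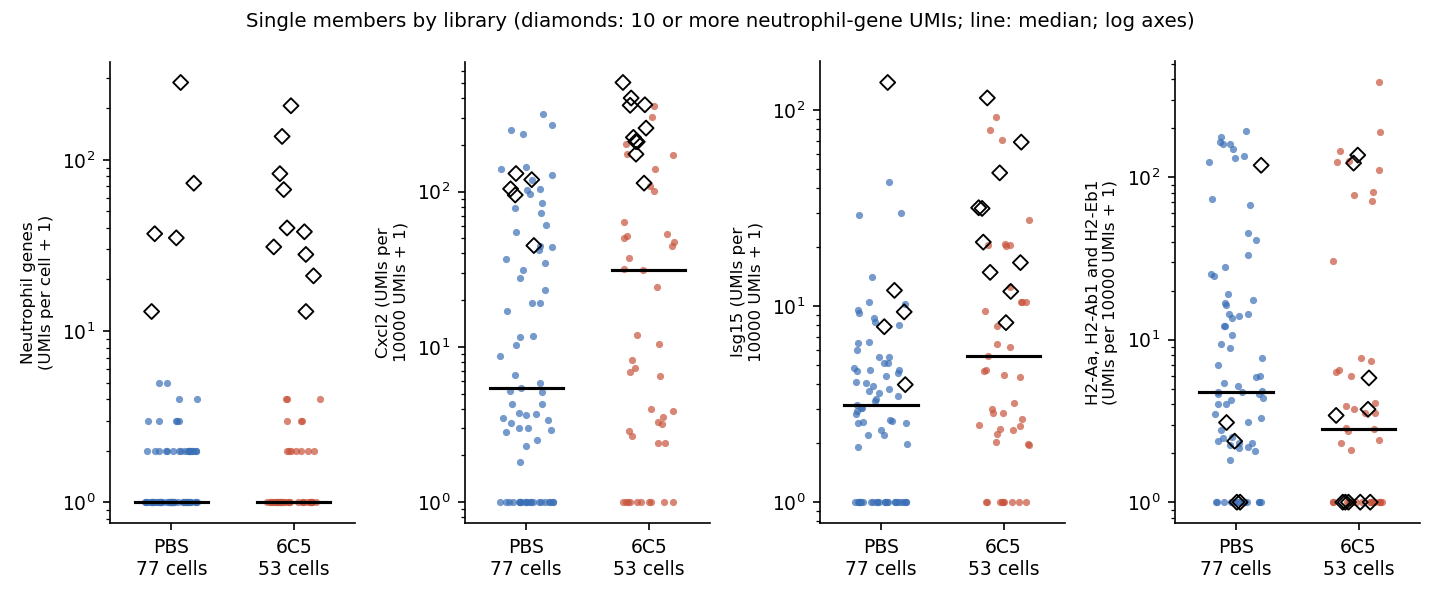
Each dot is 1 member (77 PBS in blue, 53 6C5 in red), with diamonds for those with 10 or more neutrophil-gene UMIs, lines for medians, and log axes after adding 1. From left to right the panels give neutrophil-gene UMIs per cell, and Cxcl2, Isg15 and MHC class II genes per 10000 UMIs. The 5 PBS and 10 6C5 diamonds lie above all other members in neutrophil-gene UMIs, and the 6C5 diamonds lie high in the Cxcl2 panel.

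Of 16 hypoxia and glycolysis genes, 3 were 2-fold higher in 6C5 and 0 lower, and 2 of 13, Ero1l and Mif, were higher without the neutrophil-gene members. Over all genes 1.61% were higher, and 0.837% without those members. Ero1l, an oxidase of the endoplasmic reticulum, was at 62.5 CPM in PBS and 205 CPM in 6C5, a ratio of 3.28 (2.196 to 5.001), or 2.86 without those members. A single 6C5 member held 41% of its 6C5 UMIs. The log2 ratio of Ero1l went from 1.7 to 1.2 when the top cell of each library was left out. Mif, a cytokine that inhibits macrophage migration, was at 219 and 438 CPM, a ratio of 2.00 (1.58 to 2.54), or 2.21. Outside the lists, Hmox1, which breaks down heme, was at 179 and 423 CPM, a ratio of 2.37 (1.84 to 3.05), or 2.71. Basp1, a membrane-bound signalling protein, was at 179 and 641 CPM, a ratio of 3.58, or 2.87. In the Vcan or Chil3 monocytes the ratio was 1.58 for Ero1l, 1.36 for Mif, 2.12 for Hmox1 and 1.55 for Basp1.

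The highest ratio among the members belonged to Spp1, osteopontin, a matrix protein of tumour macrophages, and its size rested largely on 1 cell. It was at 92.0 CPM in PBS and 1751 CPM in 6C5, a ratio of 19.0 (14.4 to 25.7). A single 6C5 member held 89.1% of the 6C5 UMIs and a single PBS member 39.6% of the PBS UMIs. With these left out the log2 ratio went from 4.24 to 1.76. Spp1 was at 0 in 89.6% of PBS members and 71.7% of 6C5 members. The ratio was 33.9 without the neutrophil-gene members. Free RNA held Spp1 at 285 CPM in PBS and 1495 CPM in 6C5.

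There were 37 genes lower in 6C5 in both reduced sets, of 62 in the larger and 50 in the smaller set. Bcl2, which protects cells from apoptosis, was at 101 CPM in PBS and 32.2 CPM in 6C5, a ratio of 0.319 (0.161 to 0.590), or 0.354 without the neutrophil-gene members. It was at 8.61 and 9.46 CPM in the Vcan or Chil3 monocytes, a ratio of 1.10. Hivep2, a zinc finger transcription factor, was at 215 and 54.4 CPM, a ratio of 0.253 (0.153 to 0.3999). Maml3, a coactivator of Notch, was at 182 and 61.8 CPM, a ratio of 0.339 (0.210 to 0.529). Arhgap15, a Rac regulator, was at 0.461, and Sdc4, a cell-surface proteoglycan, at 0.401. The ratio was 0.246 for Hivep2, 0.387 for Maml3, 0.445 for Arhgap15 and 0.421 for Sdc4 without the neutrophil-gene members. In the Vcan or Chil3 monocytes it was 0.868 for Hivep2, 0.538 for Maml3 and 0.475 for Arhgap15. Arhgap15 was thus lower in 6C5 to a like degree in those monocytes.

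Other genes were lower in 6C5 beside these. Negr1 held 70 UMIs in PBS members and none (0) in 6C5 members, which makes it at least 16.4-fold lower when 3 UMIs are taken as the floor of the 6C5 members. It was named after its values had been seen. Lyz2 was at 13097 and 9391 CPM, a ratio of 0.717 (0.689 to 0.746), or 0.743 without the neutrophil-gene members, with a ratio of 0.653 in the Vcan or Chil3 monocytes. The mitochondrial share of the members had a median of 0.558% in PBS and 0.358% in 6C5. Xist, which silences an X chromosome in female cells, was at 234 and 116 CPM, a ratio of 0.496 (0.348 to 0.696), or 0.446 without those members, and 0.695 in the Vcan or Chil3 monocytes. The sources used here do not state the sex of the mice.

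**Figure D4:**
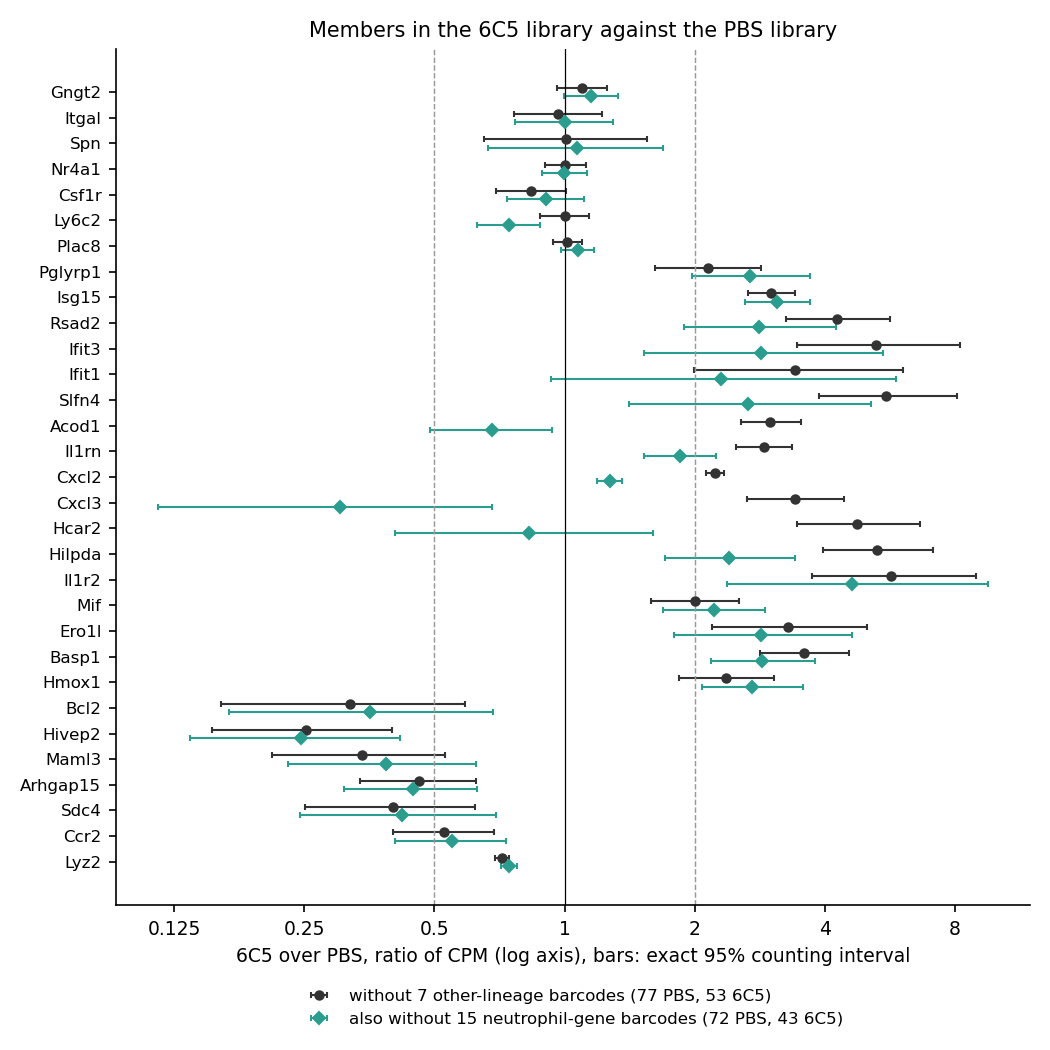
Points give the ratio of CPM in 6C5 members over PBS members on a log axis, with exact 95% counting intervals, for 77 PBS and 53 6C5 members (black circles) and without the neutrophil-gene members (green diamonds). Dashed lines mark 2-fold. Nr4a1 lies at 1.00 in both sets, Isg15 at 3.01 and 3.11, whereas Acod1 moves from 2.996 to 0.681 and Bcl2 lies at 0.319 and 0.354.

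Receptors that an antibody could engage were measured as well. Axl, the mouse counterpart of the antibody's labelled target, was at 31 UMIs in PBS members (53.8 CPM) and 14 in 6C5 members (34.6 CPM), a ratio of 0.643 (0.316 to 1.25), or 0.737 (0.315 to 1.600) without the neutrophil-gene members. Its relative Mertk was at 10 UMIs and 1 UMI, and their ligand Gas6 at 2 and 0. Of 10 Fc gamma receptor genes, which bind IgG or carry its signal, 0 were 2-fold higher or lower, with a median log2 ratio of -0.26 (also 0 called, at -0.20, without the neutrophil-gene members). Over all genes 1.61% were higher and 2.22% lower, so that 0 of 10 is near those shares. Fcgr2b, the inhibitory receptor, was at 439 and 304 CPM (0.693, 0.554 to 0.862), Fcgr3 at 443 and 297 CPM (0.670, 0.535 to 0.836) and Fcgr4 at 149 and 106 CPM (0.712, 0.482 to 1.04). These ratios were 0.684, 0.693 and 0.670 without the neutrophil-gene members. Fcgr1, the high-affinity receptor, lay the other way at 208 and 265 CPM, a ratio of 1.27 (0.970 to 1.66), or 1.65 (1.23 to 2.205) without those members. Cd274, which encodes the checkpoint ligand PD-L1, was at 188 and 257 CPM, a ratio of 1.37 (1.04 to 1.81) that came to 1.17 (0.828 to 1.63) without the neutrophil-gene members.

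Antigen presentation set some members apart from the others in both libraries. H2-Aa, H2-Ab1 and H2-Eb1, the chains of MHC class II, together gave 20 or more UMIs per 10000 in 18 of 77 PBS members (23.4%, 14.5 to 34.4) and in 12 of 53 6C5 members (22.6%, 12.3 to 36.2). Fewer than 5 were seen in 44 of 77 (57.1%) and 37 of 53 (69.8%). The former shares were 17 of 72 (23.6%) and 10 of 43 (23.3%) without the neutrophil-gene members. H2-Aa was at 1308 CPM in PBS and 1873 CPM in 6C5 members, a ratio of 1.43 (1.29 to 1.59). The ratio was 1.49 (1.32 to 1.67) without the neutrophil-gene members, and 1 member held 32.4% of the 6C5 UMIs. The log2 ratio went from 0.52 to 0.24 when the top cell of each library was left out. Fewer 6C5 members carried the gene, 20 of 53 against 49 of 77 in PBS. Together the chains had a median of 3.79 UMIs per 10000 in PBS and 1.84 in 6C5. They were at 0 in 19.5% of PBS members and 41.5% of 6C5 members. In the Vcan or Chil3 monocytes H2-Aa was at 1819 and 909 CPM, a ratio of 0.500. Of 7 class II genes in members 0 were 2-fold lower, where 2.22% of all genes were, so that 0 of 7 is near that share. In those monocytes 5 of 8 were, but the share over all their genes is not given here. The difference between the cell groups was not tested.

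Genes of other cell types were low in the 130 members. T-cell genes summed to 1 UMI in PBS and 2 in 6C5, haemoglobin and other erythroid genes to 0 and 1, and NK-cell genes to 12 and 11. Melanoma genes summed to 42 UMIs in each library, and dendritic-cell genes to 54 and 13. Macrophage genes outside the rule summed to 2662 CPM in PBS and 1994 CPM in 6C5, with Cd5l and Vsig4 at 0 in both. Neutrophil genes summed to 497 and 1168 CPM, with Camp and Ngp at 0 in both, and 1 cell reached 116 per 10000 in 6C5. Their part in the results was not tested beyond the values without the neutrophil-gene members.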

How the data were processed

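Raw UMI counts per gene and barcode were used as deposited, with no normalization by the authors. Per the file headers Cell Ranger 7.1.0 wrote them, but version 2.1.1 and the mm10 build stand in the submitters' processing notes. The sources used here do not state if introns were counted. The deposited tables list 546897 barcodes (PBS) and 566018 (6C5), so cells were called here by the limits of the rule alone. Members had a median of 7109 UMIs in PBS and 6862 in 6C5 (2200 and 2158 genes) without other lineages, and summed to 575855 and 404237 UMIs. The members and the gene lists were chosen with earlier results of these data known.

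UMIs were summed per library and group and given as CPM. Log2 ratios are of CPM plus 1. A gene at or past 2-fold was called among those with at least 50 UMIs over both groups compared, and genes of the rule were left out of the counts. Ratios carry exact conditional binomial 95% intervals, shares exact Clopper-Pearson intervals. With 1 library per group no test was made. Genes named are those of the rule, up to 5 per list with the largest ratio, any of the monocyte lists, and the highest and lowest outside the lists with at least 100 UMIs; others were picked after their values were seen. Thinning drew 2000 UMIs from each cell with a fixed seed. Free RNA was read from barcodes with 10 to 100 UMIs.

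Scrublet in scanpy 1.11.5 marked 0 barcodes at its automatic threshold, so that threshold had not worked, and doublets stay in the main values. Removing the highest scores (174 in PBS, 293 in 6C5, at 0.8% per 1000 barcodes) was an alternative, and 2 PBS and 6 6C5 members were among them. Other alternatives were the UMI, mitochondrial and marker limits, gene filters, weighting cells equally and TMM factors from edgeR 4.0.16 (R 4.3.3), used for scaling only. Removal of other-lineage and neutrophil-gene barcodes was chosen after seeing the data. Steps were tested on simulated counts and run in Python 3.11.15 with numpy 2.4.6, scipy 1.17.1 and pandas 2.3.3. Gene positions came from GENCODE mouse release 21, in which 32158 of 32285 deposited identifiers matched.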

Additional observations from a re-analysis of the deposited data

How the results depend on the processing

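The share of members was lower in 6C5 than in PBS in all 13 settings, with ratios from 0.460 to 0.710. Counts of called genes moved more. Against 385 higher and 203 lower genes in 6C5 over all members, there were 66 and 49 with at least 5 marker UMIs and 226 and 134 without the highest doublet scores. There were 155 and 82 with each cell weighted equally, 1015 and 480 with at least 20 UMIs per gene, 76 and 34 with at least 200, and 4211 and 2074 with no filter beyond 1 UMI. The number of genes tested differs by construction in the last 3 pairs. Settings added after seeing the data gave 45 and 62 without the 7 other-lineage barcodes and 20 and 50 without the neutrophil-gene barcodes too. Without the 7 barcodes they gave 65 and 44 with TMM factors and 41 and 68 with cells weighted equally. Against Vcan or Chil3 monocytes, 80 genes were higher in all members, but 126 with at least 5 marker UMIs, 138 with equal weights, 34 with TMM factors, 12 with at least 200 UMIs, 127 without the 7 barcodes and 121 without the neutrophil-gene barcodes too. The 127 lower genes became 212 with TMM factors and 79 with at least 200 UMIs. The cause was not tested, apart from the filters.

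Among genes and list medians 2-fold or more apart over all members, directions (log2 ratio of 6C5 over PBS) turned in 17 cases. With at least 5 marker UMIs, F13a1 came to 0.28, Tubb5 to -0.37 and the median of the cell-cycle list to -0.35. Lmna came to -1.49 without the 7 barcodes, -2.03 (also without neutrophil-gene barcodes), -1.40 (TMM) and -1.21 (equal weights). Without the neutrophil-gene barcodes Cxcl3 came to -1.69, Hcar2 to -0.27, Ighm to 0.039 and Lpl to 0.32. Gbp5 came to 0.10 with equal weights, and 0.15 without the 7 barcodes as well. Without the 7 barcodes, Ighm came to 0.037 (TMM) and 0.080 (equal weights), Tubb5 to -0.10 and the cell-cycle median to -0.13 (both equal weights). Smaller differences turned too. Acod1 went from 0.94 over all members to -0.55 without the neutrophil-gene barcodes. Without the 7 barcodes H2-Aa went from -0.16 to 0.52, the median of the type I interferon list from -0.11 to 0.39 and that of MHC class I from -0.33 to 0.19. The cause was not tested.

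TMM factors moved the median log2 ratio of all genes from -0.05 to -0.14 over all members, and from -0.06 to 0.03 without the 7 barcodes. No paired analysis was possible because each group has 1 library. At this depth a gene of 50 UMIs has a wide counting interval, and differences between mice cannot be told apart from those between treatments.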

Other observations

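Immediate early and heat-shock genes, counted as 1 list, leaned upward in the 6C5 members. Immediate early genes respond within minutes to stimulation or to tissue handling. Of 17 genes of the list measured, 15 had a ratio above 1 and 1, Ier3, was 2-fold higher. The median log2 ratio was 0.35 against -0.06 over all genes. Fos was at 1125 CPM in PBS and 1697 CPM in 6C5, a ratio of 1.51 (1.35 to 1.68), and Fosb at 132 and 245 CPM, a ratio of 1.86 (1.36 to 2.54). These ratios were 1.78 and 2.32 without the neutrophil-gene members, where Fosb was the 1 gene called. In the Vcan or Chil3 monocytes the ratio was 0.923 for Fos and 1.10 for Fosb, and the list's median was -0.09. MHC class I presentation genes were above 1 in 12 of 13 cases, with 0 called and a median of 0.19, close to the 0.17 of the Vcan or Chil3 monocytes. Of 26 survival and transcription factor genes 17 were below 1, with a median of -0.14. Bcl2 and Irf8, 2 in all, were 2-fold lower, against 2.22% of all genes.

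Some genes were spread unevenly over the members. Over 888 genes the variance of thinned counts was 1.30 times the mean in PBS and 1.25 times in 6C5 (medians). It was 96.0 and 12.8 times the mean for Lars2, a mitochondrial tRNA ligase, 77.1 and 41.1 for Cmss1 and 66.2 and 9.80 for Cdk8. A single PBS member held 39.1% of the Lars2 UMIs. Cd74, the invariant chain of MHC class II, stood at 24.1 and 22.5.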
